A study of Bos taurus with 6 samples.

Results

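The genes described here encode enzymes that attach ubiquitin to proteins or take it off, measured in a back muscle of cattle, the longissimus dorsi. They were chosen by name from the array annotation: genes whose symbols start with UBE2, FBXO, FBXL or FBXW, or with CUL or USP followed by a digit. FBXO32 was left out, and only probe sets with a single gene symbol were used. This gave 83 of the 9155 genes named on the array, at 122 probe sets: 26 UBE2, 14 FBXO, 7 FBXL, 5 FBXW, 4 CUL and 27 USP genes. RefSeq lists 152 protein-coding cattle genes under the same rule, so 83 of these 152 could be followed. Each gene is represented by its brightest probe set, and 31 of the 83 genes have further ones.

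The study compared 3 Japanese Black steers (castrated males), a beef breed known for fat within the muscle, with 3 Holstein steers, a breed kept mainly for milk. All 6 animals received energy-rich feed, so the feeding itself has no comparison group here. Total RNA was measured on 1 Affymetrix array per steer, and the labels used here give no age and no pairing of the animals.

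Ubiquitin is a small protein that is activated by an E1 enzyme, handed to an E2 conjugating enzyme (the UBE2 genes) and transferred to a target by an E3 ligase. The cullins (CUL genes) are scaffolds of the largest group of E3 ligases. On CUL1 the target is held by an F-box protein, whose family name gives the rest of its structure: leucine-rich repeats in FBXL, WD40 repeats in FBXW and other domains in FBXO. The USP genes encode the largest family of deubiquitinases, proteases that cut ubiquitin off again. In skeletal muscle this system marks myofibrillar and other proteins for breakdown by the proteasome.

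Signals are given in linear intensity units as deposited, and a signal can be compared between animals at the same probe set but not between genes. A positive difference means a higher signal in Japanese Black. Differences are on a log2(signal + 16) scale, on which the change of a dim probe set comes out too small. The median signal of an array was 48.5 to 54.7, and the upper quartile, 172 to 181 in 5 animals, reached 205 in Japanese Black 3. Of 12 listed muscle fibre markers 9 were named on the array, with none listed at 0 and summed signals of 114157 to 120692 in Japanese Black and 115384 to 118173 in Holstein. The 3′ to 5′ signal ratio of the actin control, a measure of RNA integrity, was 1.11 to 1.14 in Japanese Black and 1.003 to 1.07 in Holstein, without overlap. The same ratio of the gapd control was 0.858 to 0.928 in Japanese Black and 0.796 to 0.884 in Holstein, with overlap. Their part in the differences was not tested. Holstein 3 stood apart in its spike-in controls and interferon response genes. Its BioB spike-in controls read 451 to 559 against 245 to 387 in the other animals. Its 6 tested interferon response genes had a median level 1.04 above the mean of all arrays. The median level of the 5 adipocyte markers was lowest in Holstein 3, at -1.68, but ran from -0.70 to 1.40 in the other animals. Japanese Black 3 had the highest. Array weights in limma, lower for arrays whose values scatter more, were 0.51 for Holstein 3 and 0.56 for Japanese Black 3. Those of the other arrays were 1.24 to 1.635. Tissue was measured whole, so fewer cells of a type and less RNA per cell cannot be told apart.

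No ubiquitin pathway gene differed between the breeds past the adjusted threshold, and of the 7 with the smallest unadjusted p 6 had higher signals in Japanese Black. Of the 83 genes 80 passed the filter on low signals (96.4%, against 87.9% of all named genes), and the breed difference of each was tested with limma across 18012 probe sets. None of the 80 passed an adjusted p of 0.05, a threshold that 0.0167% of all probe sets and 0.0248% of all named genes passed. The smallest adjusted p was 0.333, for the cullin CUL5. At an unadjusted p under 0.05 there were 7 genes, or 8.75% of the 80, where 11.3% of all 8050 named genes tested had one. Of the 7, 6 were higher in Japanese Black, or 7.5% of the 80 (background 5.84%): CUL5, USP14, USP47, FBXL14, FBXL20 and USP12. FBXO36 alone was lower, or 1.25% of the 80 (background 5.42%). The methods' t-test in its unpaired form gave 0 genes after adjustment, with 5 higher and 1 lower at an unadjusted p under 0.05. These are partly other genes: the 5 are USP14, USP47, USP12, FBXO22 and FBXW4, and the lower one is UBE2C. CUL5, FBXL14, FBXL20 and FBXO36 missed that threshold there.

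The signals of the 3 animals of each breed did not overlap for 14 of the 80 genes, or 17.5%, against a background of 19.2%. They were all above Holstein for 11 genes (13.8%, background 10.2%) and all below for 3 (3.75%, background 8.96%). The 14 genes are UBE2K, UBE2V2, UBE2W, UBE2C, FBXO22, FBXO6, FBXO36, FBXL15, FBXW4, CUL5, USP12, USP14, USP15 and USP47.

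In direction alone, 55 of the 80 genes had a positive difference and 25 a negative one (68.8% positive), with a median of 0.10. Among all 8050 genes 48.7% were positive, with a median of -0.01. After quantile normalization 47 of 80 were positive (58.8%, median 0.04), against 44.3% of all genes. Direction also went with brightness over the whole array: 40.0% and 42.1% of all genes were positive in the dimmer quartiles of mean signal, and 55.6% and 57.0% in the brighter ones. The pathway genes lay mostly in the brighter quartiles, where 18 of 25 and 22 of 28 were positive. In the dimmer ones 9 of 14 and 6 of 13 were. The part of brightness in the direction was not tested.

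**Figure D1:**
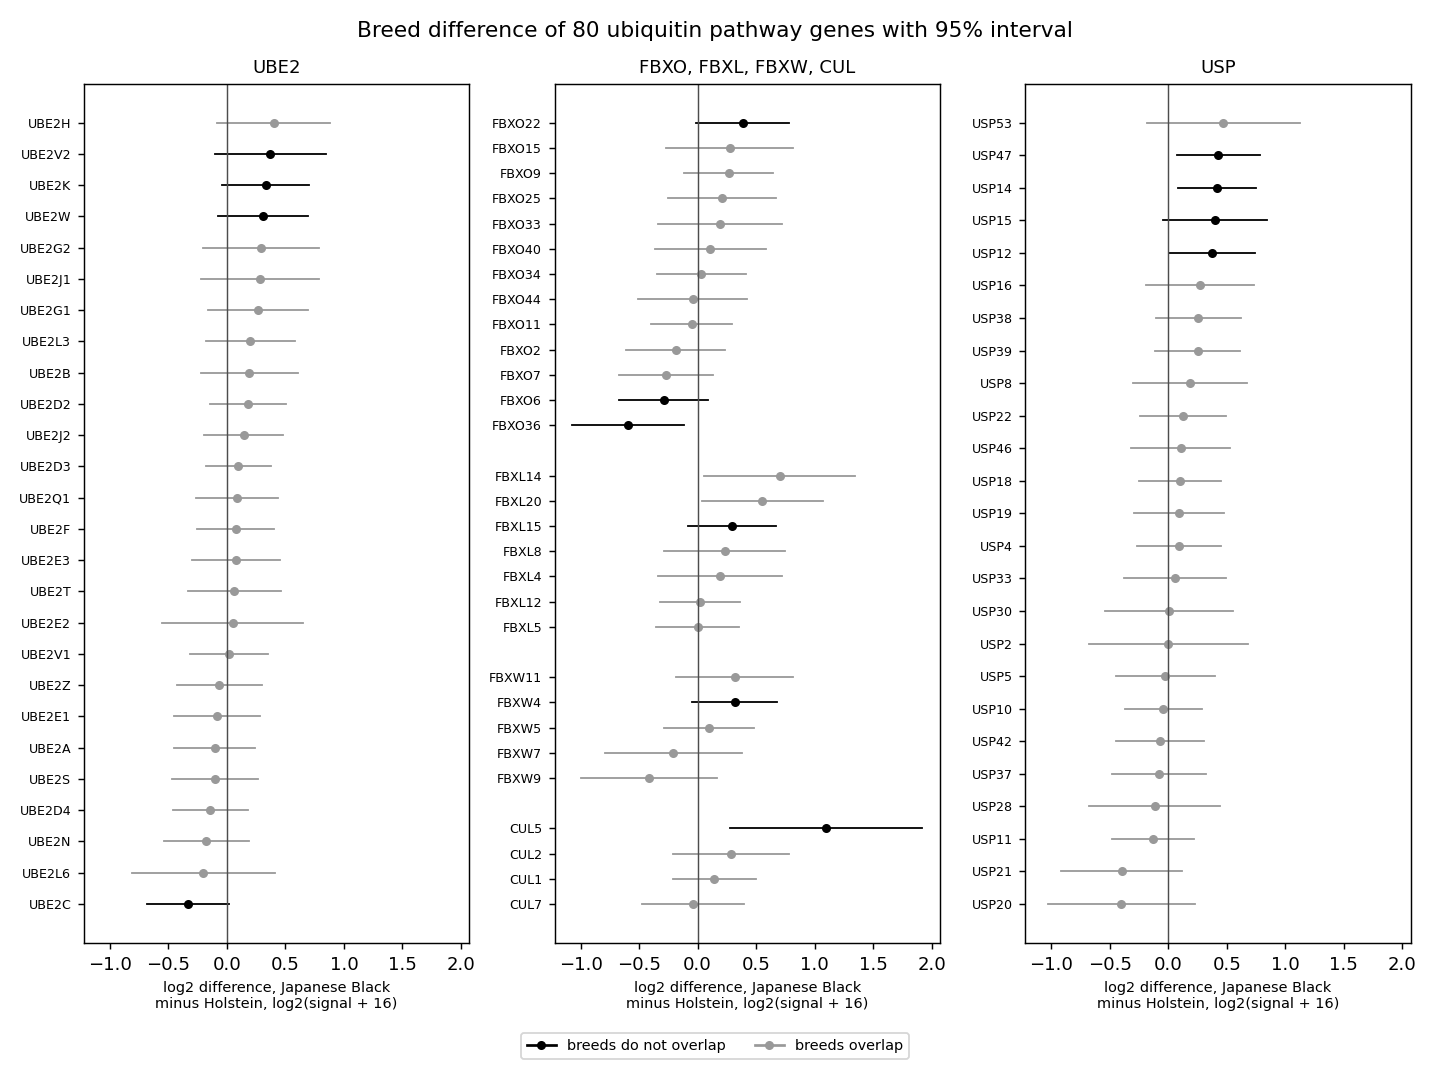
Breed difference of the 80 tested genes (log2 of signal + 16, positive where Japanese Black is higher), with limma's 95% interval; black marks the genes whose breeds do not overlap. The points run from -0.59 for FBXO36 to 1.10 for CUL5, and the intervals of 73 genes include 0.

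Holstein 3 gave the lowest signal of all animals for 30 of the 80 genes (37.5%), where it was lowest for 24.6% of all genes. Relative to each gene's mean of the 6 arrays, the pathway's median level was 0.003, 0.06 and 0.11 in Japanese Black animals 1 to 3. It was -0.01, 0.01 and -0.13 in Holstein animals 1 to 3. The median over all 8050 genes was 0.03 in Holstein 3. That animal was also the highest for 26.9% of all genes, against 13.8% of the 80. Pathway genes lay mostly in the brighter quartiles, and bright genes as a set were not compared in Holstein 3. In Japanese Black 3 the all-gene median was 0.10, close to that of the pathway genes. Without Holstein 3, 48 of 80 genes were positive and the median difference was 0.06, with 2 genes higher and 0 lower at an unadjusted p under 0.05. The count of higher genes was 3 without Japanese Black 2, Japanese Black 3 or Holstein 1, and 10 without Holstein 2. Each of the 7 genes missed an unadjusted p of 0.05 in limma with at least 1 animal left out: CUL5 without Holstein 3, USP14 without Japanese Black 2, and USP47 and FBXO36 without Japanese Black 2, Japanese Black 3 or Holstein 3. FBXL14, FBXL20 and USP12 missed it in 4 of the 6 fits with an animal left out. Which property of the Holstein 3 sample goes with the low levels was not tested.

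**Figure D2:**
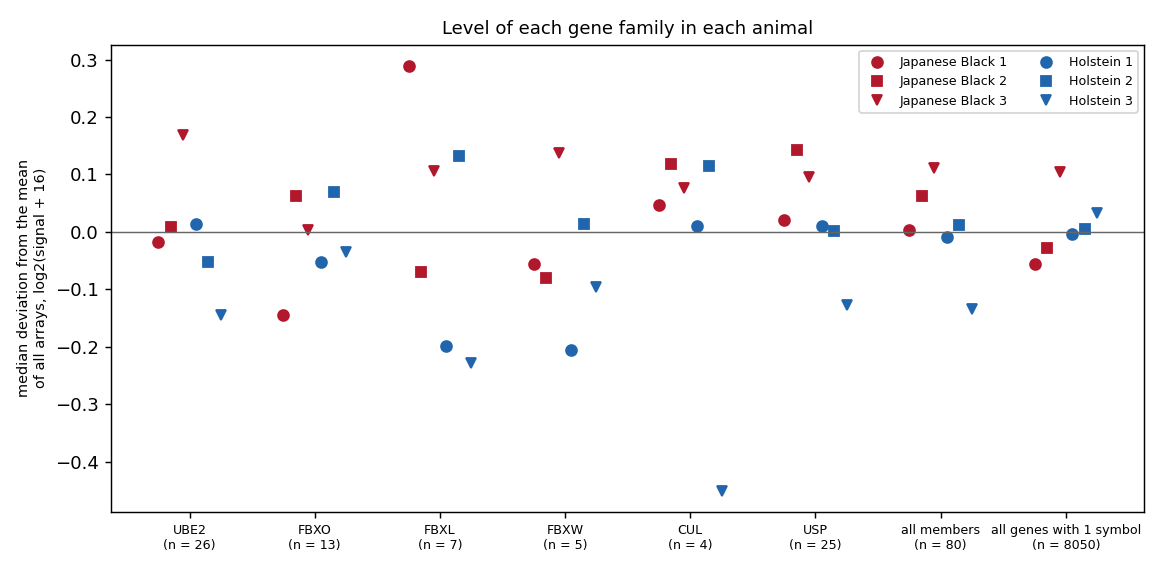
Median deviation of each gene family from its mean over all arrays, per animal, on the log2(signal + 16) scale, with the number of tested genes under each family. Holstein 3 is the lowest animal for UBE2, FBXL, CUL and USP genes and lies at 0.03 for all named genes.

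The E2 enzymes varied least between animals of a breed among the families. All 26 UBE2 genes were tested, 18 with a positive and 8 with a negative difference, between -0.33 and 0.40, with a median of 0.08. After quantile normalization 14 were positive and 12 negative, with a median of 0.02. None had an unadjusted p under 0.05, and the breeds did not overlap for 4 (15.4%, against 19.2% of all genes). The median SD within breeds was 0.15 on the log2 scale, against 0.19 for all 80 genes and 0.22 for all named genes. UBE2F, an E2 that carries the ubiquitin-like protein NEDD8 to cullins, had the smallest spread of the 80. It read 387, 411 and 407 in Japanese Black and 384, 368 and 389 in Holstein. The breeds overlapped, and the difference of 0.08 had a 95% interval of -0.25 to 0.40.

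UBE2K, which builds the chains that mark proteins for the proteasome, read 375, 469 and 428 in Japanese Black against 369, 331 and 301 in Holstein. Every Japanese Black animal lay above every Holstein animal, with a narrow gap between Japanese Black 1 and Holstein 1. The log2 difference was 0.33 (SE 0.16, adjusted p 0.436). UBE2W, which ubiquitinates the amino terminus of proteins, read 277, 351 and 375 in Japanese Black against 265, 274 and 255 in Holstein. The Holstein animals lay close together and just below the lowest Japanese Black animal, for a difference of 0.31 (SE 0.17, adjusted p 0.4696).

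UBE2V1 and UBE2V2 encode E2 variants that lack the catalytic cysteine and act together with UBE2N in building chains used in signalling. UBE2V2 read 233, 247 and 245 in Japanese Black against 217, 215 and 131 in Holstein. The groups did not overlap, but Holstein 3 alone was far below the rest. The difference was 0.37 (SE 0.21, adjusted p 0.4797) and 0.15 without Holstein 3, and its other probe set gave 0.35. UBE2V1 read 1386, 1315 and 1576 in Japanese Black against 1594, 1335 and 1309 in Holstein, a difference of 0.01 that changed sign in several other settings. UBE2N itself read 472, 559 and 520 in Japanese Black against 635, 511 and 615 in Holstein. The breeds overlapped there, and the difference was -0.18 (SE 0.16).

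UBE2C and UBE2S supply ubiquitin to the anaphase-promoting complex, the E3 ligase of mitosis. UBE2C was dim, at 35.9, 37.7 and 41.9 in Japanese Black against 55.0, 45.6 and 57.7 in Holstein. All Japanese Black animals were below all Holstein animals, with a difference of -0.33 (SE 0.15, adjusted p 0.412). UBE2S read 328, 378 and 325 in Japanese Black and 359, 337 and 418 in Holstein, and the breeds overlapped. Of 5 named markers of proliferating cells 3 were bright enough to test. Among them CDK1, the mitotic kinase, read 22.1, 17.1 and 12.6 in Japanese Black against 35.8, 24.4 and 30.9 in Holstein (difference -0.48, adjusted p 0.3495). The other tested markers, the replication clamp PCNA and the mitotic kinase AURKB, had differences of 0.03 and -0.24 with overlapping breeds. The cyclin CCNB1, too dim to test, read 5.33, 14.5 and 4.19 in Japanese Black against 1.42, 2.26 and 2.07 in Holstein, the opposite direction to CDK1. The summed signal of the 5 markers was 750 to 957 in Japanese Black and 760 to 901 in Holstein. PCNA, at 563 to 769 over all animals, carried most of that sum. The part of dividing cells in the UBE2C values was not tested.

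The UBE2D genes encode E2 enzymes that work with a wide range of ligases. UBE2D2 read 1246, 1320 and 1247 in Japanese Black against 1281, 1086 and 1008 in Holstein, a difference of 0.18 with overlapping breeds. UBE2D3 read 3176, 3738 and 3340 in Japanese Black against 3391, 3230 and 2946 in Holstein, a difference of 0.10. UBE2D4 went the other way, at 1345, 1137 and 1101 in Japanese Black against 1374, 1260 and 1308 in Holstein, a difference of -0.14 that was 0.02 at its other probe set. The breeds overlapped for all 3 of these genes. These paralogs are close in sequence, so their probe sets may share target RNA.

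The 4 E2 genes listed for the endoplasmic reticulum, where they help clear misfolded proteins, all had positive differences, and for each of them the breeds overlapped. The differences were 0.26 for UBE2G1, 0.29 for UBE2G2, 0.28 for UBE2J1 and 0.14 for UBE2J2, with adjusted p between 0.559 and 0.695. UBE2H, partner of the CTLH ligase, had the largest positive difference of the family. It read 630, 517 and 660 in Japanese Black against 385, 611 and 387 in Holstein. Holstein 2 lay among the Japanese Black animals, and the difference was 0.40 (SE 0.21, adjusted p 0.457) at this probe set and 0.17 at another.

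UBE2B, a RAD6 homologue that ubiquitinates histones and acts in DNA damage tolerance, showed how the choice of probe set matters. At the brightest one it read 4970, 5999 and 6577 in Japanese Black against 4605, 6665 and 4286 in Holstein, with overlapping breeds and a difference of 0.19 (SE 0.18). A far dimmer probe set read 58.0, 56.3 and 71.8 in Japanese Black against 17.1, 37.4 and 32.5 in Holstein. There the breeds lay well apart, with a difference of 0.82 (SE 0.21, adjusted p 0.293). Its paralog UBE2A had differences of -0.11 and 0.13 at its probe sets.

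UBE2L6 is the E2 enzyme for ISG15, a ubiquitin-like protein induced by interferon, and USP18 removes ISG15 from its targets. UBE2L6 read 101, 87.0 and 177 in Japanese Black against 148, 102 and 167 in Holstein, with wide spread in both breeds and a difference of -0.20 (SE 0.27), or -0.09 at its other probe set. USP18 read 57.8, 63.8 and 68.9 in Japanese Black and 53.4, 55.9 and 64.9 in Holstein at its brightest probe set, a difference of 0.10. Its 3 other probe sets gave differences from -0.56 to -0.15, and 2 of them were too dim to test. ISG15 read 64.6, 50.2 and 70.6 in Japanese Black against 76.4, 53.8 and 317 in Holstein. Holstein 3 stood far above the other animals for ISG15 but not for UBE2L6 or the brightest USP18 probe set. Holstein 3 was also highest for the E1 gene UBA7. UBA7 read 50.5, 19.7 and 64.4 in Japanese Black against 79.1, 44.3 and 148 in Holstein. The breeds overlapped there, with a difference of -0.77 (SE 0.39, adjusted p 0.449).

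The F-box genes were split in direction in the FBXO family and positive throughout in the smaller FBXL family. Of 14 FBXO genes 13 were tested, 7 positive and 6 negative, with a median of 0.03 that was -0.03 after quantile normalization. The dim gene was FBXO5, an inhibitor of the anaphase-promoting complex, at 13.9, 13.5 and 6.63 in Japanese Black and 16.8, 15.5 and 16.1 in Holstein.

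FBXO36 was the only one of the 80 genes with a lower signal in Japanese Black at an unadjusted p under 0.05. It read 230, 177 and 178 in Japanese Black against 232, 306 and 380 in Holstein. The groups did not overlap, but Japanese Black 1 and Holstein 1 were nearly equal. The difference was -0.59 (SE 0.21, 95% interval -1.07 to -0.11, adjusted p 0.347), and it was -0.43 without Holstein 3. FBXO22, which targets histone demethylases, read 173, 232 and 196 in Japanese Black against 160, 156 and 132 in Holstein. All Japanese Black animals were above, for a difference of 0.38 (SE 0.17, adjusted p 0.405). FBXO6, which recognises sugar chains on misfolded glycoproteins, read 88.7, 95.7 and 96.1 in Japanese Black against 100.2, 120 and 136 in Holstein. It was lower in every Japanese Black animal, with a difference of -0.29 (SE 0.17, adjusted p 0.483). FBXO2 and FBXO44, its relatives, had differences of -0.19 and -0.04 with overlapping breeds.

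FBXO40, a muscle F-box protein that targets the insulin receptor substrate IRS1, read 237, 375 and 277 in Japanese Black and 238, 322 and 253 in Holstein. The lowest animals of the breeds were nearly equal, and the difference was 0.11 (SE 0.21, 95% interval -0.37 to 0.58).

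FBXO25, the closest relative of FBXO32, read 172, 201 and 258 in Japanese Black and 190, 202 and 144 in Holstein, with overlapping breeds and a difference of 0.21. FBXO7, which acts in mitophagy and binds a proteasome regulator, read 328, 400 and 291 in Japanese Black against 432, 443 and 358 in Holstein. The difference was -0.27 (SE 0.18), and its dimmer probe sets gave -0.32 and 0.20. FBXO9 was positive at both probe sets, at 0.27 and 0.20, and FBXO15 gave 0.28 and -0.35.

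All 7 FBXL genes had positive differences, from 0.0006 to 0.70, with a median of 0.23 that was 0.26 after quantile normalization, where 6 of 7 were positive. With an animal left out, 5 to 7 were positive: 5 without Japanese Black 1, Japanese Black 3 or Holstein 3. Leaving out Japanese Black 1 gave a median of 0.10, leaving out Holstein 1 gave 0.14 and leaving out Japanese Black 2 gave 0.41. FBXL14, which targets the transcription factor Snail, read 60.9, 79.4 and 90.6 in Japanese Black against 41.8, 68.3 and 21.3 in Holstein. Holstein 2 lay within the Japanese Black range and Holstein 3 was lowest. The difference was 0.70 (SE 0.28, adjusted p 0.381) and 0.40 without Holstein 3. FBXL20 read 213, 191 and 232 in Japanese Black against 131, 198 and 103 in Holstein. Again Holstein 2 lay within the Japanese Black range, and the difference was 0.55 (SE 0.23, adjusted p 0.383), falling to 0.36 without Holstein 3. Its other probe sets gave 0.32, with separate breeds, and -0.02.

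FBXL15 read 176, 133 and 168 in Japanese Black, while the 3 Holstein animals all read 125 to 126. The breeds did not overlap, and the difference was 0.30 (SE 0.17, adjusted p 0.476). FBXL5, the iron-sensing F-box protein that controls iron regulatory proteins, read 698, 679 and 707 in Japanese Black against 775, 731 and 590 in Holstein, a difference of 0.0006. FBXL4, a mitochondrial F-box protein, had overlapping breeds and differences of 0.19 and 0.15 at its probe sets.

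Among the 5 FBXW genes 3 were positive and 2 negative, with a median of 0.10, which was 0.01 after quantile normalization. FBXW4 read 602, 589 and 474 in Japanese Black against 423, 436 and 460 in Holstein. The breeds did not overlap, though Japanese Black 3 was close to Holstein 3, and the difference was 0.32 (SE 0.16, adjusted p 0.437). FBXW11, a beta-TrCP protein that acts on phosphorylated signalling and clock proteins, read 206, 264 and 259 in Japanese Black against 141, 250 and 194 in Holstein, with overlap and a difference of 0.32 (SE 0.22). FBXW7, which targets cyclin E and MYC, read 120, 161 and 203 in Japanese Black and 265, 165 and 144 in Holstein, spreading widely in both breeds around a difference of -0.21. FBXW9 was dim, at 7.64, 18.6 and 24.9 in Japanese Black and 18.2, 24.3 and 41.6 in Holstein, with overlap and a difference of -0.41 (SE 0.26).

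CUL5, the scaffold of ligases that use SOCS-box proteins, had the largest difference and the largest spread of all 80 genes. It read 296, 147 and 108 in Japanese Black against 103, 74.8 and 42.8 in Holstein. The breeds did not overlap, but Japanese Black 3 and Holstein 1 nearly met, and Japanese Black 1 was far above the other animals. The difference was 1.10 (SE 0.36, 95% interval 0.28 to 1.92, adjusted p 0.333), and the SD within breeds was 0.61 on the log2 scale. Leaving out an animal at a time gave 0.72 to 1.39. Only 1 probe set on the array is named CUL5.

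The other cullins lay closer together. CUL1, the scaffold that F-box proteins bind, read 891, 980 and 896 in Japanese Black against 884, 923 and 709 in Holstein at its brightest probe set, with overlap and a difference of 0.14 (SE 0.16). A dimmer CUL1 probe set read 475, 565 and 425 in Japanese Black against 314, 378 and 344 in Holstein. There all Japanese Black animals were above, with a difference of 0.48 (SE 0.17, adjusted p 0.347), and a further CUL1 probe set gave 0.23. CUL2, the scaffold used by the VHL protein, read 329, 331 and 385 in Japanese Black against 316, 350 and 201 in Holstein, a difference of 0.29. CUL7 read 67.1, 60.9 and 76.5 in Japanese Black and 69.5, 90.3 and 54.6 in Holstein, a difference of -0.04 at the brightest probe set and 0.12 and 0.19 at the others. Holstein 3 was the lowest animal for all 4 cullins at their brightest probe sets. At the dimmer CUL1 probe set with separate breeds, Holstein 1 was lowest.

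**Figure D3:**
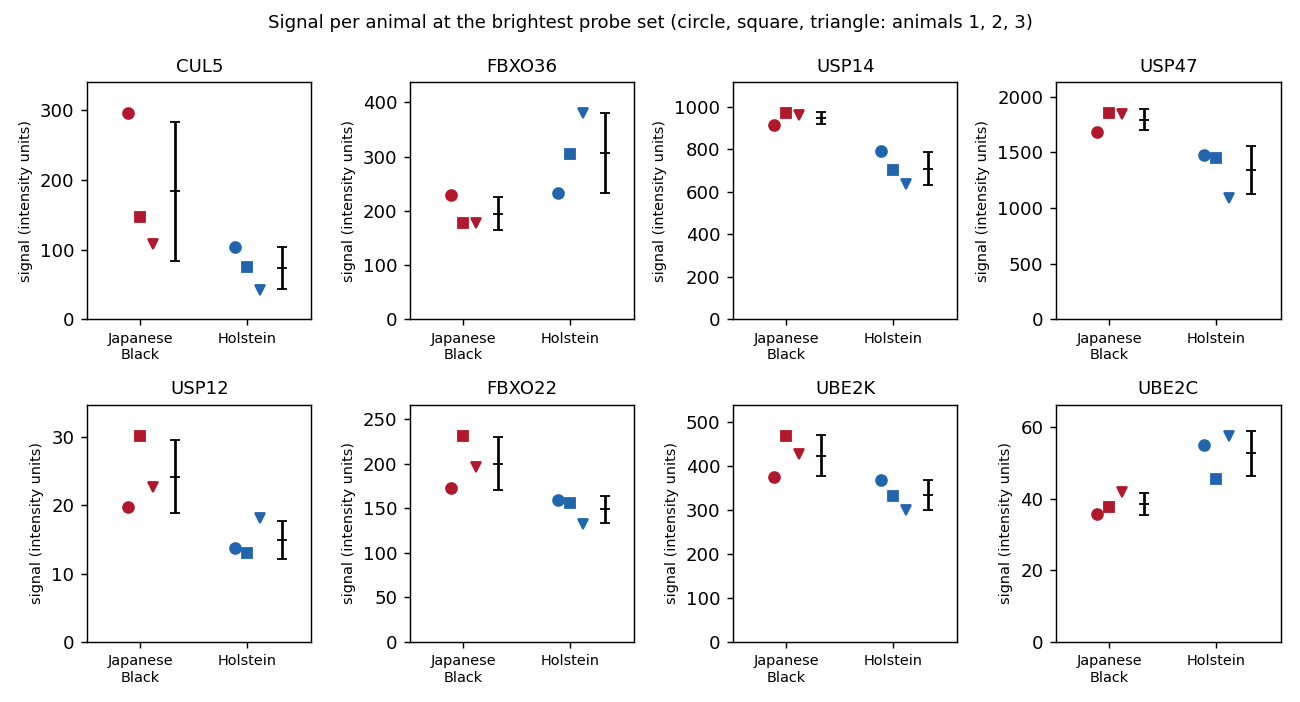
Signal of 8 genes in each animal, in linear intensity units with axes from 0; bars show mean and SD of the 3 animals per breed. All 8 were picked from the 14 genes whose breeds do not overlap (17.5% of the 80 tested, against 19.2% of all genes). Japanese Black is lower for FBXO36 and UBE2C and higher for the other 6 genes.

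Of the 27 USP deubiquitinase genes 25 were tested, 17 positive and 8 negative, from -0.40 to 0.47, with a median of 0.10 that was 0.05 after quantile normalization. The breeds did not overlap for 4 genes, all higher in Japanese Black, and 3 of these had an unadjusted p under 0.05. Those shares, 16% and 12%, lie near the 19.2% and 11.3% of all genes. Without Holstein 3 the median was 0.004 and 13 of 25 were positive.

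USP14, a deubiquitinase bound to the proteasome that trims chains from its substrates, read 915, 970 and 961 in Japanese Black against 791, 701 and 638 in Holstein. All Japanese Black animals lay in a narrow band above the Holstein animals. The means were 949 ± 29.4 and 710 ± 77.3 (SD, n = 3 each), and the difference was 0.42 (SE 0.15, 95% interval 0.08 to 0.75, adjusted p 0.347). It stayed between 0.34 and 0.49 with any animal left out, and a dim probe set gave 0.24, also with separate breeds. The other deubiquitinases of the proteasome are UCHL5 and PSMD14. UCHL5 read 1466, 1491 and 1556 in Japanese Black against 1369, 1337 and 1040 in Holstein, without overlap and with a difference of 0.28 (SE 0.15, adjusted p 0.4696). PSMD14 had a difference of 0.22, and its breeds overlapped.

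USP47, which acts on DNA polymerase beta in base excision repair, read 1686, 1851 and 1846 in Japanese Black against 1479, 1448 and 1093 in Holstein. The breeds lay apart, with Holstein 3 lowest. The means were 1795 ± 93.96 and 1340 ± 215 (SD, n = 3 each), and the difference was 0.43 (SE 0.16, 95% interval 0.08 to 0.78, adjusted p 0.351), or 0.29 without Holstein 3. USP15 read 411, 399 and 398 in Japanese Black against 328, 367 and 227 in Holstein. Japanese Black animals were nearly alike and above all Holstein animals, for a difference of 0.40 (SE 0.20, adjusted p 0.433) at this probe set and 0.07 at a dim one. Its paralogs USP4 and USP11 had differences of 0.10 and -0.13, with overlapping breeds.

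USP12 and USP46 are closely related enzymes that both need the partner WDR48. USP12 was dim, at 19.8, 30.2 and 22.6 in Japanese Black against 13.8, 12.9 and 18.1 in Holstein. The breeds were separate by a small margin, with a difference of 0.37 (SE 0.16, adjusted p 0.392) that depended on the offset, at 0.65 for 1 and 0.16 for 64. USP46 read 114, 135 and 131 in Japanese Black and 141, 119 and 92.4 in Holstein, a difference of 0.11. Its dimmer probe set gave -0.32, with all Japanese Black animals below.

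USP19, which has been linked to muscle wasting in rodents, read 631, 548 and 658 in Japanese Black and 506, 680 and 539 in Holstein, with overlap and a difference of 0.10 (SE 0.17). USP2, whose expression follows the circadian clock, read 239, 411 and 176 in Japanese Black and 205, 335 and 252 in Holstein. It varied more within each breed than between them: the SD within breeds was 0.48, the largest after CUL5, and the USP2 difference was 0.0006 (SE 0.30). USP53 had the largest positive difference of the family, 0.47, with 993, 1217 and 978 in Japanese Black and 690, 1238 and 506 in Holstein, where Holstein 2 was the highest of all animals. The largest negative ones were -0.40 for USP20 and also -0.40 for USP21, both with overlap.

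USP28, an enzyme that stabilises MYC, read 1717, 1554 and 1578 in Japanese Black against 2529, 1162 and 1828 in Holstein, so the Holstein animals lay on both sides of the narrow Japanese Black range. USP22, the deubiquitinase of the SAGA transcription complex, and USP39, a splicing factor without protease activity, had differences of 0.12 and 0.25, both with overlap. USP30, a deubiquitinase of the mitochondrial outer membrane, had a difference of 0.01, and the endosomal USP8 differences of 0.18 and 0.16. USP3 and USP50 were too dim to test. USP3 read 13.5, 15.3 and 8.43 in Japanese Black and 3.15, 4.53 and 1.22 in Holstein. The other 7 tested USP genes had differences between -0.08 and 0.27, and their breeds overlapped.

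Probe sets of the same gene allowed a check within the data. Of 25 genes with several tested probe sets 16 had the same direction at all of them and 9 did not. The span between probe sets exceeded 0.5 for 4 genes, FBXO15, UBE2B, FBXL20 and FBXO7. Directions matched at both probe sets for USP14, USP15 and UBE2V2, whose breeds did not overlap at the brightest one. CUL5, FBXO36, USP47 and USP12 rest on a single probe set.

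**Figure D4:**
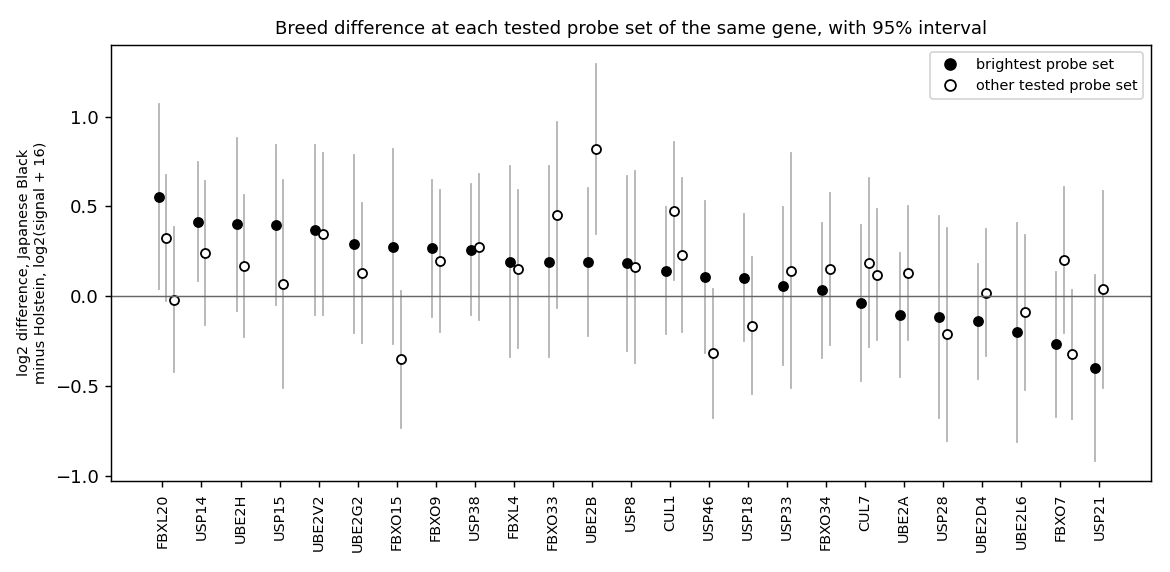
Breed difference at each tested probe set of the 25 genes that have several (log2 of signal + 16, positive where Japanese Black is higher); lines are limma's 95% intervals and filled points are the brightest probe set. The widest gap is at FBXO15 (0.28 and -0.35), and UBE2B has its largest difference, 0.82, at the dimmer probe set.

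Other genes of the ubiquitin system were followed in lists by role. Of 7 named E1 genes 3 were positive and 4 negative, with a median of -0.05, and 6 of 7 partners and adaptors of the cullins were positive, with a median of 0.06. Of 12 genes of neddylation and the COP9 signalosome, which switch cullins on and off, 6 were positive and 6 negative. In that list DCUN1D1, a NEDD8 ligase for cullins, read 336, 309 and 311 in Japanese Black against 183, 284 and 102 in Holstein, without overlap and with a difference of 0.81 (SE 0.30, adjusted p 0.361).

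Ligases of the HECT and RBR types had the highest median of these 5 lists, 0.35, with 12 of 14 genes positive. The breeds did not overlap for 6 (42.9%, against 19.2% of all genes), and 4 had an unadjusted p under 0.05 (28.6%, against 11.3% of all genes), all positive. The ligase ARIH1, which works with neddylated cullins, read 684, 592 and 659 in Japanese Black against 468, 522 and 359 in Holstein. All Japanese Black animals were above, with a difference of 0.52 (SE 0.18, adjusted p 0.345). HERC2 had a difference of 0.54 (adjusted p 0.361) and WWP1 one of 0.70 (adjusted p 0.361). The list's level was -0.16, 0.02 and -0.34 in Holstein animals 1 to 3, and 0.09, 0.12 and 0.18 in Japanese Black animals 1 to 3. These lists were chosen with earlier results of these data known, and their counts are given for the main setting only.

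Of 16 tested deubiquitinases outside the USP family 11 were positive, with a median of 0.14. ZRANB1, an OTU deubiquitinase, read 1060, 919 and 714 in Japanese Black against 480, 438 and 364 in Holstein. The breeds lay far apart, and the difference of 1.03 (SE 0.19, adjusted p 0.148) did not pass. Of the 56 genes tested in these lists 0 passed in limma, and 8 had an unadjusted p under 0.05, all positive (14.3%, against 5.84% of all genes in that direction and 11.3% in either).

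Markers of other cell types did not share 1 pattern with the pathway genes. The 5 adipocyte markers summed to 3340 to 13369 in Japanese Black and 1673 to 11700 in Holstein, a wide range in both breeds. All 6 endothelial markers were negative, with a median of -0.30 and sums of 1886 to 2840 in Japanese Black and 2626 to 3242 in Holstein. The 5 leukocyte markers summed to 310 to 469 in Japanese Black and 333 to 444 in Holstein, and the 5 fibroblast markers to 6051 to 10510 in Japanese Black and 7569 to 8831 in Holstein. Of the fibroblast markers 4 were negative, with a median of -0.29, and the collagen COL3A1 and the proteoglycan DCN carry most of that sum. All 6 tested interferon response genes were negative, with a median of -0.45. Their median level was 1.04 in Holstein 3, but -0.03 and -0.47 in Holstein 1 and 2. In Japanese Black animals 1 to 3 it was -0.15, -0.60 and -0.21. The 9 named interferon response genes summed to 270 to 461 in Japanese Black and 317 to 1476 in Holstein. None of these markers was listed at 0. Their part in the differences of the pathway genes was not tested.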

How the data were processed

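Biotinylated cRNA from total RNA of each muscle was measured on 1 array per steer, per the labels' protocols. The deposited values are linear intensity values, 1 per probe set. GCOS 1.1.1 and Expression Console 1.1 are the programs in the submitters' processing notes; summarising method and scaling: not given in the sources used here. In all, 112 control probe sets were left out. An offset of 16 was added before log2, arrays were not rescaled, and the dimmest 25% by mean were not tested, which left 18012 probe sets. The breeds were tested in limma 3.58.1 (R 4.3.3, lmFit and eBayes, with a trend on intensity), and Benjamini-Hochberg adjusted p-values cover every tested probe set. A paired t-test is named for the series without any pairs, so the fit was unpaired. Nothing beyond distinct sample titles says how the steers were sampled, so p-values measure only the spread between these samples.

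Gene names came from the platform annotation: of 24016 probe sets 13292 had 1 symbol, 86 several and 10638 none. Gene identifiers of 121 of the 122 probe sets matched RefSeq (ARS-UCD2.0), with 0 symbols changed. The genes and lists were chosen with earlier results of these data known. The rule gave full values to genes with separate breeds and an unadjusted p under 0.05, to genes of listed roles and to at most 3 genes per pathway list. Other genes given with full values were picked after their values were seen. On simulated data for this comparison, 18012 probe sets in 5 runs, limma recovered 1.19% of changes of 0.5 on the log2 scale, 42.99% of changes of 1 and 89.4% of changes of 2. Values were drawn independently for each probe set from a normal distribution with its observed mean and spread. No shift was shared by an array, so these rates hold for that setting only. Alternatives were other offsets, filters, normalizations, variance models, probe set choices and leaving out each animal. Figures used matplotlib 3.10.9 in Python 3.11.15.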

Additional observations from a re-analysis of the deposited data

How the results depend on the processing

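The count of pathway genes past the adjusted threshold was 0 in all 17 alternatives. No paired analysis was possible because no label assigns a Japanese Black steer to a Holstein steer. Of the 80 genes 49 kept their sign in all alternatives, 37 of them positive and 12 negative, and those that changed sign had differences of at most 0.28. The count at an unadjusted p under 0.05 ranged from 2 to 10 for higher and from 0 to 1 for lower genes when an animal was left out. Lower genes numbered 3 with array weights and 2 with the mean over probe sets. The USP median ranged from 0.0040 (without Holstein 3) to 0.1295. Over all probe sets, 3 passed, against 0 with an offset of 1, with the dimmer 50% left out or by the methods' t-test, 10 with array weights and 0 to 15 when an animal was left out.

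Sign changes were not confined to differences near 0. FBXO15, at 0.28 in the main setting, fell to -0.04 in 1 of 17 alternatives, and FBXW7, at -0.21, rose to 0.03 in 1 of 17. When an animal was left out, CUL7 ranged from -0.1842 to 0.1114, FBXO40 from -0.0655 to 0.2483, UBE2V1 from -0.0589 to 0.1037 and USP2 from -0.316 to 0.2618. Quantile normalization gave -0.0072 for UBE2F, -0.044 for UBE2V1 and -0.0796 for USP2. The mean over probe sets gave 0.0887 for CUL7 and -0.1948 for USP18. UBE2D4 was 0.0202 when probe sets with an x, s or a suffix were left out, UBE2V1 was -0.0558 with array weights, and USP2 was -0.0025 with an offset of 1. The cause was not tested. With 3 arrays per breed, precision is limited throughout.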
